A study of Caenorhabditis elegans with 2 samples.

Results

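Candidate ChIP-seq peaks at transfer RNA (tRNA) genes are described here: every row of the authors' joint ranked list whose summit, the single base given as the centre of the peak, lies within 200 bp of an annotated tRNA gene. The rule uses position alone, and it found 532 of the 115634 ranked peaks. The annotation (Ensembl release 115 on WBcel235, the same sequence as ce11) holds 612 nuclear tRNA genes and 22 mitochondrial ones, and none of the 532 summits lay at a mitochondrial gene. The worms were whole Caenorhabditis elegans young adults of strain OP374, 61 h old and synchronised as starved L1 larvae after bleaching. OP374 carries the integrated transgene wgIs374, which holds F37B4.10 joined to TY1, EGFP and 3xFLAG tags together with a working unc-119, in the unc-119(tm4063) mutant background, so tagged F37B4.10 came from an added copy of the gene. Chromatin sheared by sonication to 200 to 800 bp was precipitated with an antibody to GFP, in 1 group of 2 biological replicates. The series has no second condition, so the values below are descriptions and no test was run; read depth is unknown, and tissues cannot be told apart in whole animals.

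tRNA genes are transcribed by RNA polymerase III from promoter elements that lie inside the gene. The A box near the 5′ end and the B box nearer the 3′ end are bound by the factor TFIIIC, which brings TFIIIB to the DNA just upstream, and a run of T after the gene ends transcription. Many tRNA genes in the worm are present as identical copies spread over the genome, with different DNA on either side of each copy.

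The first sequence shows how a peak sits on a tRNA gene. It is the 276 bp peak at R04D3.t2, a valine tRNA gene, at chrX:13306901-13307176 on the plus strand, with the gene in capitals (sequence from RefSeq WBcel235, as for all sequences here). The summit is base 13307039, 5 bp past the 5′ end of the gene.
R04D3.t2 peak: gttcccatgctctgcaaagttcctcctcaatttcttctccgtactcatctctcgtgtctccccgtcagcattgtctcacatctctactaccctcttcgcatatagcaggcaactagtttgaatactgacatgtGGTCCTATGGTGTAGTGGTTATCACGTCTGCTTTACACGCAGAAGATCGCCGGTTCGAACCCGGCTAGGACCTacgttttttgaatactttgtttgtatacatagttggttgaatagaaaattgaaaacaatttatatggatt

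The next set holds tRNA genes with some of the strongest peaks, printed 5′ to 3′ on the strand of the gene with the B box match in capitals. The match is to GTTCGANNC or GTTCAANNC, letters chosen after the genes had been seen and searched on the strand of the gene. K11H12.t1 (selenocysteine, chrIV:658181-658266, plus strand), K09A11.t1 (tyrosine, chrX:13264683-13264766, minus strand) and C04A11.t1 (leucine, chrX:13665555-13665673, plus strand) are each the only gene of their sequence. The last 2 contain an intron. H08J11.t5 (chrX:9090627-9090698, minus strand) and H08J11.t1 (chrX:9090830-9090901, plus strand) are glutamine genes that face away from each other and share 1 peak.
K11H12.t1: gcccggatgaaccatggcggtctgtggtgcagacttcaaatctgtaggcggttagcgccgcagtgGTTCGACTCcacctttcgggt
K09A11.t1: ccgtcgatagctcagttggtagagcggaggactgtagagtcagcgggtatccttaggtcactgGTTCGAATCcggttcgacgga
C04A11.t1: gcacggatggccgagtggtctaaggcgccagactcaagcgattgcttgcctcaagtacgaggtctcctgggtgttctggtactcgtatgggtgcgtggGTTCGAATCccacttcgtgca
H08J11.t5: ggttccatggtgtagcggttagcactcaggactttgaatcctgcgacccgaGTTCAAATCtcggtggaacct
H08J11.t1: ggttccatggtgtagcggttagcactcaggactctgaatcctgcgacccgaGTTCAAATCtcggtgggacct

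The last set compares identical gene copies with a high and a low peak. Each sequence has 60 bp upstream, the gene in capitals and 40 bp downstream. T23F1.t1 (chrV:15465026-15465198, plus strand, joint signal 100.1) and ZK994.t2 (chrV:8499524-8499696, minus strand, 13.99) are lysine genes, and 21 of the 60 upstream bases match when the copies are aligned at the 5′ end. Y39A1A.t1 (chrIII:10624702-10624873, minus strand, 88.4) and R04D3.t1 (chrX:13293132-13293303, plus strand, 11.6) are threonine genes with 11 upstream matches. F15G9.t1 (chrX:9743529-9743700, plus strand, 107.5) and T07H6.t1 (chrX:6286261-6286432, plus strand, 33.7) are alanine genes with 24. Of the 40 downstream bases, 18 matched in the lysine pair, 24 in the threonine pair and 20 in the alanine pair. The summits lay at different places: past the 3′ end by 31 bp at T23F1.t1, 54 bp at ZK994.t2, 11 bp at Y39A1A.t1 and 84 bp at R04D3.t1, and inside the gene at F15G9.t1 and T07H6.t1.
T23F1.t1: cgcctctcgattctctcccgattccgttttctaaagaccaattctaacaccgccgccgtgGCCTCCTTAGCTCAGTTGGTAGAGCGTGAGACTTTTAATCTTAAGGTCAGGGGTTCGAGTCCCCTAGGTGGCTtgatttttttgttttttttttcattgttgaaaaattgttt
ZK994.t2: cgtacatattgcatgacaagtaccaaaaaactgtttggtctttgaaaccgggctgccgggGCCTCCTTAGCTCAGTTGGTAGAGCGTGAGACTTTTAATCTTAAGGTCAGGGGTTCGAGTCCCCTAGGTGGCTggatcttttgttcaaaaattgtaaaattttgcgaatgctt
Y39A1A.t1: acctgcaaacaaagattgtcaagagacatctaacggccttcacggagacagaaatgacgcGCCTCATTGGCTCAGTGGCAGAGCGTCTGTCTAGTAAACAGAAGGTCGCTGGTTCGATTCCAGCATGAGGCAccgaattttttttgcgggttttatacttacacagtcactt
R04D3.t1: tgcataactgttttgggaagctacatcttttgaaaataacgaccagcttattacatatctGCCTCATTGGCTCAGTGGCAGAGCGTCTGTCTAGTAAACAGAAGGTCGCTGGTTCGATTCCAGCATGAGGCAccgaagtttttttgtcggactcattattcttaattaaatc
F15G9.t1: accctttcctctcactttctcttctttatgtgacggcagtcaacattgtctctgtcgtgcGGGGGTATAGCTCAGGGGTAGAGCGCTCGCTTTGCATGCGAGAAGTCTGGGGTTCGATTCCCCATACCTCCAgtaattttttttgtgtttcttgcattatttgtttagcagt
T07H6.t1: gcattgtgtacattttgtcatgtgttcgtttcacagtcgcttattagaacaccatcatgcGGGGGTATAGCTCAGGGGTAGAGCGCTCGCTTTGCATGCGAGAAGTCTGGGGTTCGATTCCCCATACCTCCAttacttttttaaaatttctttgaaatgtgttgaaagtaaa

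Most tRNA genes had a ranked peak, and these peaks ranked high in the list. Of the 612 nuclear tRNA genes, 526 (85.9%, exact 95% interval 82.9 to 88.6) had a summit within 200 bp. The ranked list is dense: 49.3% of all 472 bp stretches of the nuclear genome, the span of a 72 bp gene with its flanks, held a summit. A single summit lay at 473 genes, 2 or more lay at 53, and 86 had none. Signal, which the authors wrote for each peak without stating its scale, had a median of 41.6 at tRNA genes (quartiles 28.3 and 55.4, range 2.00 to 120.2). The median over all ranked peaks was 23.6 (quartiles 14.97 and 33.6). The median rank percentile of the tRNA peaks, the share of the list with lower signal, was 87.6. The top 10% of the list by signal (10% of all peaks by construction) held 247 of the 532 (46.4%). At the other end, 98 (18.4%) fell below the list's median. Summits just inside the distance limit, at 190 to 200 bp, numbered 10 with a median signal of 28.8, and the 8 summits in the next 10 bp beyond it had a median of 27.8.

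Peaks that ranked reproducibly were also frequent. The irreproducible discovery rate (IDR) measures how consistently a peak ranks between a pair of inputs, and 58 of the 532 (10.9%) had an IDR of at most 0.01, here termed called, against 905 of all ranked peaks (0.783%). The authors' conservative list held the same 58, and 0.729% of all ranked peaks. Since 9 called peaks lay within reach of 2 tRNA genes, 67 of the 612 genes (10.9%, interval 8.59 to 13.7) had a called peak. The lowest signal of a called tRNA peak was 50.9 and the highest of one not called was 81.3, so signal alone did not set the call.

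Other small RNA genes give a scale for these values. tRNA pseudogenes, taken from the RefSeq annotation, had a summit at 136 of 209 genes (65.1%). Their 134 peaks had a median signal of 26.9 and a median percentile of 59.1. None of the 134 was called, and 17 (12.7%) were in the top 10%. 1 of these peaks also lay at a tRNA gene. Peaks at snRNA genes (113, median signal 33.2) and snoRNA genes (310, median 32.7) had lower medians than tRNA peaks, but 12.4% and 12.3% of them were called, and their highest signals were 188 and 281.

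Summits gathered on the gene itself. The median summit lay 26 bp past the 5′ end (quartiles -17.3 and 85). Inside the gene lay 205 summits, 4.47 per kb of tRNA gene, against 1.15 per kb over the nuclear genome. Upstream lay 180 (1.47 per kb) and downstream 147 (1.20 per kb). In 50 bp steps from the 5′ end, 158 summits fell in the first 50 bp of the gene, 97 in the 50 bp before it and 85 in the next 50 bp. The 4 steps between 150 and 350 bp upstream held 19 to 46. Summits at the 209 pseudogenes were less concentrated, with 10 to 23 per step between 150 bp upstream and 150 bp downstream of the 5′ end. Per 100 pseudogenes, 9.09 fell in the first 50 bp, 11.0 in the 50 bp before and 10.5 in the next 50 bp. Per 100 tRNA genes these steps held 25.8, 15.8 and 13.9.

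**Figure D1:**
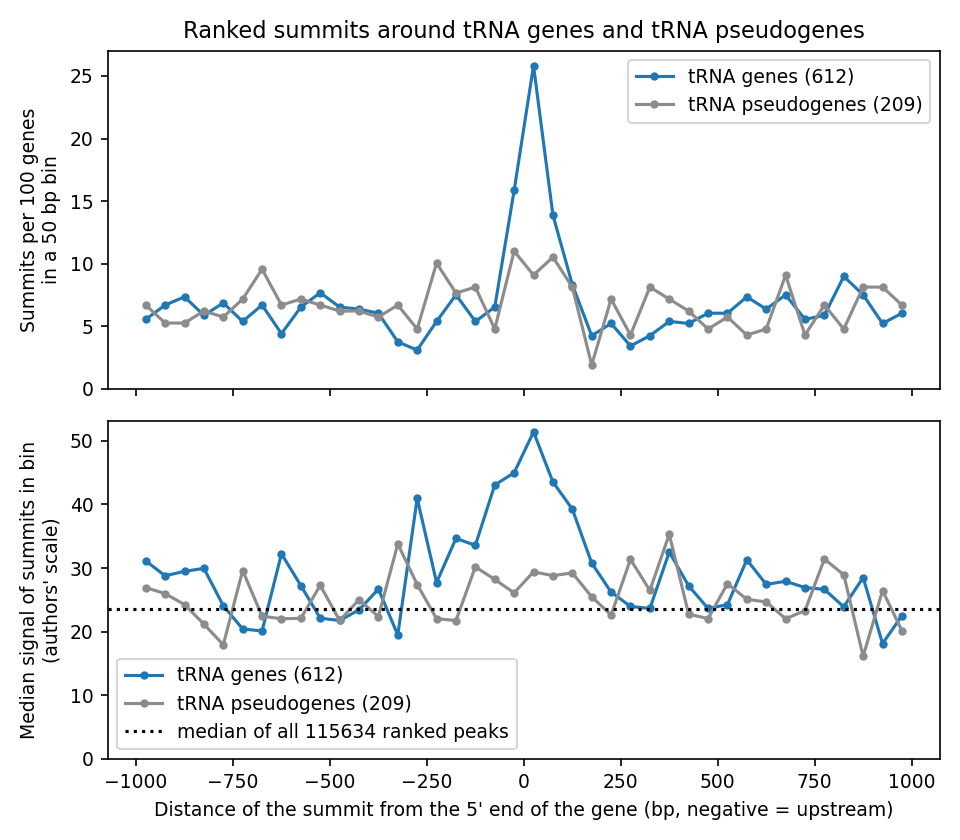
Number of ranked summits per 100 genes (upper panel) and their median signal (lower panel) in 50 bp bins by distance from the 5′ end, for 612 tRNA genes and 209 tRNA pseudogenes; the dotted line is the median of all ranked peaks. Both curves of the tRNA genes are highest in the first 50 bp of the gene, at 25.8 summits per 100 genes and a median signal of 51.4, while the pseudogenes have 9.09 and 29.4 there.

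Signal followed the same order. Peaks with the summit inside the gene had a median of 50.1 (quartiles 33.7 and 64.1, n = 205), those upstream 39.5 (26.8 and 50.9, n = 180) and those downstream 35.5 (23.6 and 48.4, n = 147). Called peaks were 42 of 205 inside (20.5%), 12 of 180 upstream (6.67%) and 4 of 147 downstream (2.72%). In steps of 50 bp away from the gene, the upstream medians were 44.99 (n = 97), 37.9 (n = 32), 31.2 (n = 26) and 31.0 (n = 25). Downstream they were 41.1, 31.6, 30.9 and 22.8. The last of these is below the median of the whole list.

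The order of the 3 classes was the same in each replicate's own ranked list. In replicate 1 the medians were 27.2 inside, 21.2 upstream and 20.6 downstream, where the list's median was 16.01. In replicate 2 they were 27.4, 24.8 and 23.3, with a list median of 18.9. The order did not hold at finer steps in replicate 2. There, summits 1 to 50 bp upstream had a median of 29.8 (n = 80), above the 27.4 inside the gene (n = 180). In replicate 1 this step had 24.5 (n = 84), below the 27.2 inside. The quartile ranges of the 3 classes overlapped in every list. Base composition also differed by position: the median GC content within 50 bp of the summit was 51.5% inside, 44.6% upstream and 37.6% downstream. Over all ranked peaks signal was higher at higher GC, with medians of 19.4 at 20 to 35% GC, 24.0 at 35 to 45%, 29.2 at 45 to 55% and 35.9 at 55 to 75%. Within each of these ranges tRNA peaks had the higher median, at 28.3, 40.4, 46.3 and 48.9. Inside and outside the gene, tRNA peaks had medians of 51.5 (n = 130) and 41.5 (n = 103) at 45 to 55% GC, and 40.5 (n = 31) and 40.2 (n = 125) at 35 to 45% GC. The part of GC content in the order by position was not tested.

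**Figure D2:**
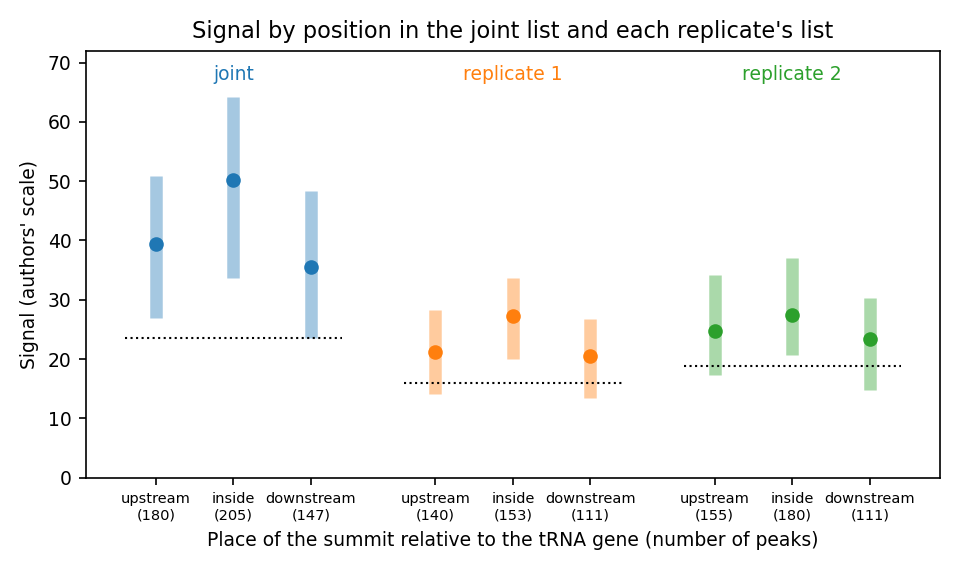
Median signal (points) and quartiles (bars) of tRNA peaks by place of the summit in the joint list and in each replicate's list, with the number of peaks in brackets; dotted lines are the medians of all peaks in each list. Peaks inside the gene have the highest median in all 3 lists, and the bars overlap between positions.

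Some low values sit beside another ranked summit. For 22 of the 532 tRNA peaks (4.14%, against 6.33% of all ranked peaks) the joint signal was lower than both input signals of the same row, with a median of 4.32, and 18 of the 22 had another ranked summit within 276 bp, the width of a peak. The lowest tRNA peak, with a joint signal of 2.00, is of this kind. It lay 193 bp downstream of T04D3.t1, a glycine gene on chromosome I whose other summit, inside the gene, had a signal of 51.1. Without the 22 peaks, the medians inside, upstream and downstream were 50.3, 40.7 and 36.7.

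The strongest peak at a tRNA gene belonged to R01H5.t1, a threonine gene between protein-coding genes on the X chromosome (X:12563788-12563859). Its joint signal was 120.2 (rank 92 of the list), with 53.9 in replicate 1's list and 60.4 in replicate 2's. Next came M01E5.t1, a lysine gene on chromosome I, with a joint signal of 115 (52.9 and 58.7 in the replicates' lists). Its summit lay 68 bp upstream of the gene and within 200 bp of sls-2.9, annotated as an snRNA gene, and it was the single tRNA peak that also lay at an snRNA or snoRNA gene. R04D3.t2, printed above, followed with 113 (52.1 and 55.3). All 3 genes were in the top 1% of both replicates' lists.

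F15G9.t1 and F15G9.t2, alanine genes of different sequence in an intron of him-4, which encodes an extracellular matrix protein, lay 86 bp apart. The peak inside F15G9.t1 had a joint signal of 107.5 (53.7 and 47.9). A second summit 202 bp away, beyond F15G9.t2, had 38.4. K09A11.t1, the tyrosine gene, had 102 (58.1 and 46.6). F41D9.t3, an asparagine gene inside sulp-3 on the opposite strand, had 100.1 but differed more between replicates, at 35.4 and 61.6.

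On chromosome V the strongest peak, at 100.1, lay between T23F1.t1 (lysine) and T23F1.t2 (proline), which point towards each other, with its summit 31 bp past the 3′ end of the first. F52C9.t1 (threonine, 98.0) led chromosome III. K02D7.t1 (aspartate, 96.4), in an exon of grl-26, led chromosome IV, and T21B4.t1 (isoleucine, 95.8), inside the collagen gene col-85 on the opposite strand, led chromosome II. A further ranked summit with a signal of 82.0 lay 504 bp from that of T21B4.t1. C33G3.t2 (lysine, 91.8), F52H2.t2 (asparagine, 90.6), ZK622.t1 (alanine, 90.6) and Y39A1A.t1 (threonine, 88.4) complete the 20 tRNA genes of highest signal with those already named. All 20 had a called peak, and 11 of the 20 are on X.

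The single selenocysteine tRNA gene of the worm stood high. K11H12.t1, whose product reads the UGA codon as selenocysteine, had a joint signal of 92.7 (43.3 and 53.3), at the 99.8th percentile. Its summit lay 23 bp upstream of the gene, outside the mature sequence. Upstream summits were also found at 11 further called peaks, among them C33G3.t2 (15 bp) and C02F12.t1 (methionine, 29 bp).

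Amino acid classes overlapped widely. Besides selenocysteine, the highest medians were those of cysteine (54.6, n = 10), leucine (49.2, n = 37) and alanine (47.7, n = 32), and the lowest those of tryptophan (31.2, n = 10) and histidine (32.1, n = 17). The quartiles were 50.6 and 61.2 for cysteine, and 25.2 and 60.3 for leucine, the next in this order. The order was not the same in the replicates' lists: leucine was at a median percentile of 70.2 in replicate 1 and 90.1 in replicate 2, histidine at 41.3 and 74.1, and methionine at 89.0 and 75.6. Cysteine was above 91 in both, at 92.3 (n = 7) and 92.0 (n = 10).

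**Figure D3:**
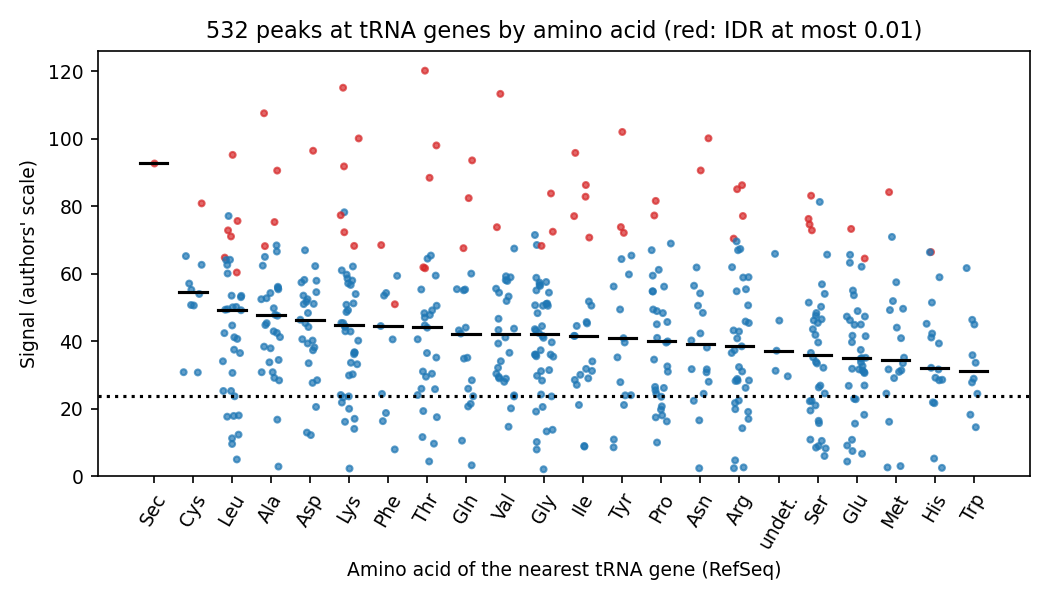
Joint signal of each of the 532 tRNA peaks by amino acid of the nearest tRNA gene, with the median as a black bar; red points have an IDR of at most 0.01 and the dotted line is the median of all ranked peaks. The points of neighbouring classes overlap, and the medians of classes with more than 1 peak run from 54.6 for cysteine to 31.2 for tryptophan.

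The tryptophan class holds the sup loci, where mutations that change the anticodon let the tRNA read a stop codon, and the rtw genes. sup-5, an amber suppressor locus, had the highest joint signal among them at 61.6 (38.3 and 21.1 in the replicates). sup-7 had 46.3 and rtw-6 44.9, sup-28, sup-29 and rtw-5 had 28.9, 27.7 and 24.4, and sup-33 and sup-24 were below the list's median at 18.2 and 14.5. sup-21 had no joint summit and a signal of 17.8 in replicate 1's list. All but rtw-5 belong to 1 family of 10 identical copies, so the spread from 14.5 to 61.6 lay among genes of the same sequence. Of the 10 tryptophan peaks 0 were called, where 10.9% of all tRNA peaks were, a count too small to set the class apart.

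Identical copies of a tRNA gene differed widely in signal. The 612 genes have 200 distinct sequences, 143 genes are the only one of their sequence, and the largest family is a glycine tRNA with 29 copies. Each copy takes the strongest summit within 200 bp, so a summit shared by neighbouring genes counts at both. F15G9.t2, the highest of 15 copies of an alanine gene at 107.5, takes its value from the summit inside F15G9.t1. Among the 374 genes with a peak in families of 4 or more copies, the SD of signal was 20.1 over all genes and 19.3 about the family median. In the 24 families with 8 or more copies at a peak, the family medians ran from 28.3 to 55.2, and the highest copy was a median of 4.46 times the lowest. The widest by this ratio was a methionine family, with C02F12.t1 at 84.2 and C25F6.t1 at 2.95. C25F6.t1 lies in a group of 3 genes spanning 707 bp, where the highest signal was 29.0. In the next widest, an isoleucine family, the highest copy was 10.98 times the lowest. The printed pairs are also identical copies with a high and a low peak. T23F1.t1 was in both replicates' lists (47.6 and 48.5) and ZK994.t2 in replicate 1's alone (13.2). Y39A1A.t1 was in both (48.7 and 43.3) and R04D3.t1 in neither. F15G9.t1 was in both and T07H6.t1 in replicate 2's alone (25.3). How reads that fit several copies were placed is not given in the sources used here.

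Median signal was close across copy number classes. It was 41.2 for single-copy genes (n = 116), 40.9 for genes with 2 to 9 copies (n = 138) and 42.3 for those with 10 or more (n = 278). The share of genes with a joint summit differed more, at 80.4%, 85.5% and 88.6% in the same order. It was 60.1%, 65.8% and 69.4% in replicate 1's list and 65.7%, 71.1% and 74.4% in replicate 2's. The 29 genes with 2 exons, 19 of them tyrosine, 7 leucine and 3 isoleucine genes, had 27 peaks with a median of 41.1, of which 6 were called (22.2%). Genes with 1 exon had a median of 41.6, and 52 of 505 peaks were called (10.3%). The median percentiles for 2 exons and 1 exon were 61.2 and 82.1 in replicate 1's list and 84.7 and 78.8 in replicate 2's.

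The B box match and the run of T were found at nearly all tRNA genes, and the A box match at 443 of the 612. The B box match was in 95.9% of the 612 tRNA genes and in 78.9% of the tRNA pseudogenes. Within 276 bp centred on the summit, on either strand, 80.5% of tRNA peaks held it, against 6.79% of all ranked peaks. The 7429 ranked peaks with a B box match that lay away from tRNA genes had a median signal of 24.4, close to the 23.6 of all peaks away from tRNA genes. A run of TTTT within 30 bp of the 3′ end followed 98.9% of the genes, and 30.1% of 30 bp windows after a ranked summit held it. The 20 tRNA peaks at genes without the B box match had a median of 31.5, and 0 were called, against 42.3 for the other 512, of which 58 were called. The replicates' lists went opposite ways: the medians without and with the match were 25.5 (n = 11) and 22.7 (n = 393) in replicate 1, and 20.3 (n = 14) and 26.1 (n = 432) in replicate 2.

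Medians were close inside and outside protein-coding genes. Of the 612 tRNA genes, 293 lie inside a protein-coding gene, 283 of them in introns and 10 in exons, and 319 lie outside. Peaks inside had a median of 40.9 (n = 255, 24 called, 9.41%) and those outside 42.4 (n = 277, 34 called, 12.3%). Those on the strand of the host gene had 39.8 (n = 142) and those on the opposite strand 42.9 (n = 113). The difference between inside and outside was smaller than the quartile ranges, and its sign changed with the window. In replicate 1 the medians were 22.0 inside and 23.6 outside, and in replicate 2 they were 25.3 and 26.0. Of the 9 peaks at tRNA genes in exons, 2 were called, at K02D7.t1 and at C28G1.t1 (glutamate, 73.3), and the others ran from 19.4 to 46.2.

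Medians were also close for grouped and lone tRNA genes. Taking genes within 1000 bp of each other as a group, 236 genes fell into 100 groups and 376 stood alone. Peaks at lone genes had a median of 42.9 (n = 343, 40 called, 11.7%) and those at grouped genes 40.8 (n = 189, 18 called, 9.52%), a difference whose sign changed with the window and with the signal used. A peak could serve more than 1 gene: 47 summits lay within 200 bp of 2 tRNA genes, with a median of 48.9 against 41.1 for the other 485.

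Within groups, neighbours differed. The largest groups had 6 genes each. On X, F22F1.t2 to F22F1.t7 (serine, aspartate, serine, aspartate, methionine and isoleucine) had joint signals of 8.43, 40.6, 51.4, none, 31.6 and 70.7, of which the last, at F22F1.t7, was called. The replicates' lists gave 37.6 and 37.2 at F22F1.t7, but 38.4 and 9.55 at F22F1.t4. The 6 histidine genes F28H6.t2 to F28H6.t5 had identical sequences. Of these F28H6.t2 and F28H6.t7 shared a peak of 41.1 and F28H6.t5 had a peak of 45.1, while the other 3 had none. A group of 5 glutamine genes in ajm-1, a gene for an apical junction protein, spanned 1002 bp. H08J11.t5 and H08J11.t1 shared the called peak of 93.6 (43.7 and 51.1), H08J11.t3 had a peak of 42.3 (20.2 and 23.6), and the remaining 2 genes had none. Another group of 5 on X, K01A12.t1 to K01A12.t3 (arginine and cysteine), had a peak at 4 genes. Its signals ran from 37.3 to 65.2, and 0 of its genes had a called peak.

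The X chromosome carries 276 of the 612 nuclear tRNA genes (45.1%), and 236 of the 532 tRNA peaks (44.4%) lay on it, against 17.8% of all ranked peaks. Of the 58 called tRNA peaks, 30 were on X (51.7%). The share of tRNA genes with a summit was 86.2% on X and 85.7% on autosomes. The median signal was 42.0 on X and 41.5 on autosomes, where all ranked peaks had 23.5 and 23.7. In replicate 1 the medians were 24.4 and 21.7, and in replicate 2 they were 26.3 and 24.8. In the joint list the order by position was the same on X (49.7 inside, 40.8 upstream and 32.1 downstream) and on autosomes (50.6, 37.6 and 36.5). On X both replicates' lists kept this order. On autosomes summits inside were highest in both, while upstream and downstream medians were 19.1 and 20.7 in replicate 1 and 23.8 and 23.6 in replicate 2. All 4 called peaks downstream of a tRNA gene were on autosomes.

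Among single chromosomes, II had the highest joint median at 45.5 and V the lowest at 35.8. On II 11 of 48 tRNA peaks were called (22.9%), against 5.71% to 12.7% on the others. The replicates' lists gave chromosome II median percentiles of 89.2 and 75.9. Chromosome I was at 87.2 and 69.2, and chromosome III at 62.7 and 82.2, so the order of chromosomes was not shared between replicates.

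**Figure D4:**
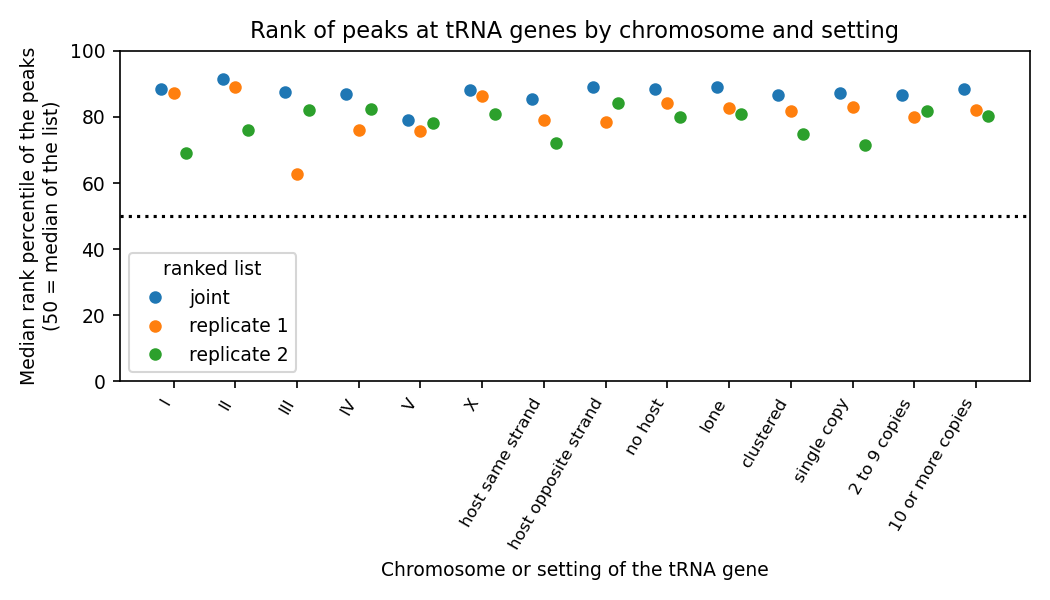
Median rank percentile of tRNA peaks by chromosome and by setting of the tRNA gene in the joint list and in each replicate's list; the dotted line at 50 is the median of each list. Every group lies above 50 in all 3 lists, and differences between lists are as large as those between groups, for example 62.7 and 82.2 on chromosome III in replicates 1 and 2.

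Each replicate's list showed the high rank of tRNA peaks, with fewer peaks called. Replicate 1's list held 404 summits at tRNA genes among 58046, with a median percentile of 81.9, and replicate 2's held 446 among 63045, with 79.3. Of the 612 genes, 66.3% had a summit in replicate 1's list and 71.6% in replicate 2's, against 25.5% and 27.4% of all 472 bp stretches. At pseudogenes the median percentiles were 54.4 and 41.7, at snRNA genes 65.36 and 71.96, and at snoRNA genes 79.8 and 75.3. Called tRNA peaks numbered 5 in replicate 1's list, where 0.2% of all peaks were called, and 1 in replicate 2's, where 0.216% were. The first 5 lay at R01H5.t1, F15G9.t1 with F15G9.t2, K09A11.t1, C33G3.t2 and F52C9.t1, and the last at C06G1.t1, a histidine gene (29.9 and 57.7). These made up 1.24% and 0.224% of tRNA peaks, where 4.5% and 3.76% of peaks at snoRNA genes and 2.38% and 6.90% at snRNA genes were called. No gene was called in both lists.

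Gene by gene the replicates matched loosely. Both lists had a summit at 327 tRNA genes and neither had one at 95. Across the 327 genes the signals had a Spearman correlation of 0.309 and a Pearson correlation of 0.384, given as a description because the genes share libraries and some share peaks. The top 10% of each list held 177 and 168 genes, 86 of them in both. Of the 526 genes with a joint summit, 324 had one in both lists (median joint signal 51.9), 66 in replicate 1's alone (32.1), 93 in replicate 2's alone (36.0) and 43 in neither (18.2). The 86 genes with no joint summit had one in both lists in 3 cases and in neither in 52. Nearly all called peaks were high in both. In replicate 1's list 57 of 58 were in the top 10%, and the gene of the remaining 1 had no summit there. In replicate 2's list 58 of 58 were in the top 10%. Among those present the median percentile was 98.8 in each. The IDR call itself rewards such a match, so this is no separate evidence. Among the 57 called peaks whose gene had a summit in both lists, the percentiles differed most at 3 genes. They were C27A2.t1 (isoleucine, percentiles 90.6 and 99.7, signals 26.4 and 55.5), M02F4.t1 (glycine, 91.8 and 98.9, signals 27.1 and 43.4) and C28G1.t1 (99.7 and 93.3, signals 46.8 and 32.6).

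**Figure D5:**
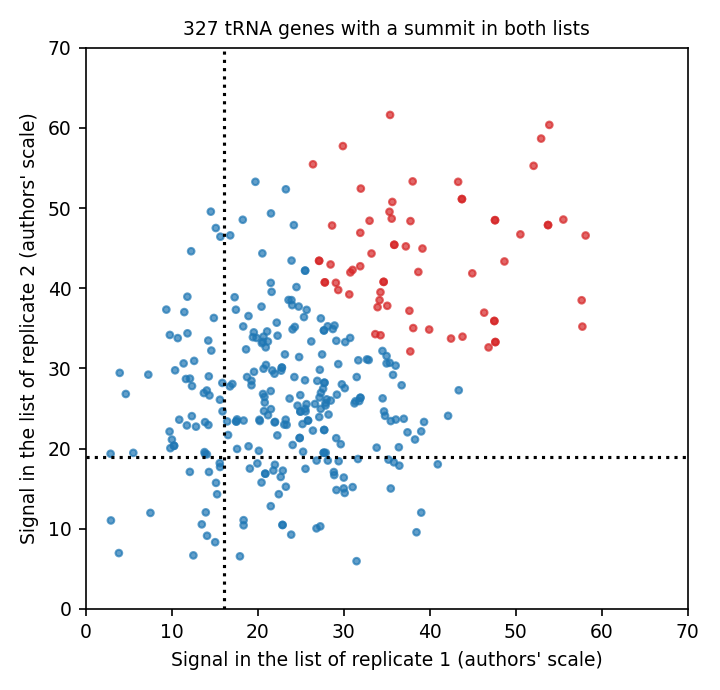
Signal of the strongest summit at each of the 327 tRNA genes with a summit in both replicates' lists; red points are genes whose joint peak has an IDR of at most 0.01 and dotted lines are the medians of all peaks in each list. Red points are above both medians, while the other genes scatter, with a Spearman correlation of 0.309 over all 327.

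The joint list also gives the signal of each peak in its pair of inputs, which name no sample. The interval and signal of input 1 recurred in replicate 1's list for 400 of the 532 tRNA peaks and in replicate 2's for 0, and those of input 2 recurred in replicate 2's list for 424 and in replicate 1's for 0. Input 1 was the higher in 40.2% of tRNA peaks and in 40.3% of all ranked peaks. The Spearman correlation between inputs was 0.350 across the 532 peaks, against 0.280 across all 115634. The Pearson correlation went the other way, at 0.401 and 0.416.

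Other genes around RNA polymerase III can be set beside the tRNA genes. rpr-1, the RNA component of RNase P, which trims the 5′ end of tRNA precursors, had a called peak with a signal of 122, above every tRNA peak. The Y RNA gene yrn-1 had 27.1, and mrpr-1, the RNase MRP RNA, had no summit. Of 16 genes for 5S ribosomal RNA, 8 had a summit, and 2 of these peaks, of 176 and 94.5, had an IDR of at most 0.01 but were not in the conservative list. These 5S genes are repeated copies, so the counts at single copies are uncertain. Among 9 genes of the polymerase III machinery, 0 had a called peak in their promoter. The highest signals were 41.3 at tbp-1, the TATA-binding protein gene, and 40.7 at rpac-19, a polymerase subunit gene. The lowest was 4.77 at brf-1, and rpc-1 and rpac-40 had no summit. Of 11 genes for tRNA processing and modification, 0 had a called promoter peak, with the highest signals at elpc-4 (55.6), tut-1 (50.1) and tut-2 (47.0). Here the lowest was 18.95 at hpo-31, and elpc-2 and nsun-2 had no summit. Over all 19985 protein-coding genes 1.51% had a called peak in the promoter, so a count of 0 among 20 genes is near that background. For the 15921 with a ranked summit in the promoter, the median of the highest signal was 29.9.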

How the data were processed

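The deposited peak lists of both replicates and of the replicates together were used, on ce11 per the authors' README files. For each ranked peak the authors deposited a signal of unstated scale and the global IDR as a −log10 value, and for its 2 inputs a further score each, taken here as the input's signal. Aligner, peak caller, scaling and read depth: not given in the sources used here. The control library was not analysed here. The input columns name no sample. Signal was therefore compared within a list, and between lists by rank percentile, except among the alternatives, where signal differences were not rescaled.

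Summits (start plus offset) were assigned to the nearest tRNA gene within 200 bp in Ensembl release 115. Amino acids, sequences and tRNA pseudogenes come from RefSeq WBcel235, where all 612 nuclear genes were matched. A gene was grouped when another tRNA gene lay within 1000 bp. Promoters of protein-coding genes covered 1000 bp before and 200 bp after a start. Shares of genes carry exact (Clopper-Pearson) 95% intervals, which treat genes as independent and cover counting error only. Named genes are the 20 of highest signal and the leading gene of each chromosome, position and setting. The largest groups, the lowest peak and 3 called peaks were also named. These 3 differ most between replicates among called peaks at genes with a summit in both lists. Suppressor genes and printed copies were chosen after their values were seen. The members, lists and rules were chosen with earlier results of these data known. Scripts were tested on simulated data and used Python (3.11.15), pandas (2.3.3), numpy (2.4.6), matplotlib (3.10.9) and scipy (1.17.1). Alternatives were other windows, the other joint list, each replicate's list, single-copy genes, the strongest peak per gene, other thresholds, both inputs' signals, rank by IDR, same-strand hosts, and, added after seeing the data, leaving out peaks below both inputs.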

Additional observations from a re-analysis of the deposited data

How the results depend on the processing

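Signal stayed higher inside than outside the tRNA gene (difference in medians 12.98), and higher upstream than downstream (3.94), under every alternative computed for them. Differences by host gene (inside minus outside, -1.56), by grouping (grouped minus lone, -2.08) and by chromosome (X minus autosomes, 0.50) were small and changed sign. The cause of these changes was not tested.

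The sign of the grouping difference turned to 0.20 with the signal of input 1, 3.34 with single-copy genes only and 2.80 with a 500 bp window. That of the host difference turned to 0.14 with input 2, 0.68 with 100 bp and 0.83 with 500 bp. That of the X difference turned to -0.79 with the strongest peak per gene, -1.22 with 100 bp and -2.10 with 500 bp.

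With a 100 bp window, the median percentile was 91.1, 13.1% of peaks and 9.80% of genes were called, and the inside difference was 9.06 and the grouping difference -3.72. With 500 bp, there were 832 peaks with a median percentile of 75.3, 7.33% of them and 12.3% of genes called, and differences of 19.4 inside and 2.32 upstream minus downstream. The other joint list gave 11.9% of peaks and 11.6% of genes called, and 2.33 upstream minus downstream. Single-copy genes alone gave 120 peaks, 9.17% called, 7.69% of genes called, and differences of 10.3 inside, 13.7 upstream minus downstream, -7.15 by host and 6.07 for X. With the strongest peak per gene, the percentile was 89.6, and 11.6% of peaks and 9.48% of genes were called. An IDR limit of 0.05 gave 26.7% of peaks and 26.3% of genes. Input 1 gave 5.33 inside and 1.42 upstream minus downstream, and input 2 gave 4.91 and 2.97. Ranked by IDR, the median percentile was 84.9. With hosts on the same strand only, the host difference was -2.86.

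Leaving out a replicate, so that the other's own list stands in, gave 0.224% to 1.24% of peaks and 0.163% to 0.980% of genes called, with 404 to 446 peaks and percentiles of 79.3 to 81.9. The differences ran from 3.39 to 6.34 inside, 0.60 to 1.48 upstream minus downstream, -1.69 to -0.65 by host, -1.82 to -0.28 by grouping and 1.52 to 2.72 for X. No paired analysis was possible because the design holds 1 group. Of 83 alternatives, 28 moved a value by less than the SD between replicates' lists or, for the count of peaks, by less than 1.5 times, 46 moved it by more and 9 changed its sign. The unknown depth, the unstated signal scale and the unstated placing of reads among identical copies limit all values.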

Other observations

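Of the 86 nuclear tRNA genes with no joint summit within 200 bp, 38 were among the 276 on X. Another tRNA gene lay within 1000 bp of 31, as it did for 236 of all 612, and 28 were among the 143 single-copy genes. A joint summit lay at 86.2% of genes on X, 86.9% of grouped genes and 80.4% of single-copy genes, against 85.9% of all 612. Summits in soft-masked sequence made up 18.4% of tRNA peaks and 28.0% of all ranked peaks. tRNA peaks in a protein-coding promoter numbered 105 and had a median signal of 41.8, against 41.6 for the other 427.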
